A study of Mus musculus with 207 samples.

Results

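Docking and fusion of insulin granules was followed through 7 genes in 207 single islet cells of mice: the Rab GTPases Rab3a and Rab27a, the Rab effector Sytl4, the SNARE proteins Stx1a, Snap25 and Vamp2, and the calcium sensor Syt7. The genes were chosen by name for their roles, and all 7 were found by NCBI Gene number among the 44448 rows of the expression table. The cells came from pancreatic islets of male mice, 138 cells at 3 months (young) and 69 cells at 26 months (old), and every cell is labelled a beta cell. Cells were caught on a microfluidic chip, and each value is a TPM, which is scaled for transcript length and to a fixed total per cell, so that genes can be ranked within a cell but read depth is unknown. No strain, genotype, treatment or animal is named in the labels. Each age therefore counts as 1 sample. The age comparison has no test and no replicate check, and each SD below is the spread between cells.

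An insulin granule reaches the plasma membrane carrying Rab27a and Rab3a, small GTPases that mark secretory granules and recruit effector proteins. Sytl4, also called granuphilin, binds Rab27a on the granule and the syntaxin-Munc18 complex at the membrane, and holds granules in the docked state. Fusion is driven by SNARE proteins, with Stx1a and Snap25 in the plasma membrane zippering with Vamp2 on the granule, and Syt7 is a high-affinity calcium sensor that couples the calcium signal of a glucose-stimulated beta cell to that fusion.

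The 7 genes lie on 7 chromosomes, given here with start and end in assembly GRCm38.p6. The Rab genes are Rab3a (NCBI Gene 19339, chr8:70754703-70758608) and Rab27a (11891, chr9:73044810-73097623), and their effector Sytl4 (27359) lies at chrX:133936385-133981821. The SNARE genes are Stx1a (20907, chr5:135023482-135051100), Snap25 (20614, chr2:136713439-136782428) and Vamp2 (22318, chr11:69088528-69092381). Syt7 (54525) lies at chr19:10388802-10453181. All 7 are protein-coding. RefSeq promoter windows were matched for 4 of the 7 (Rab3a, Rab27a, Sytl4 and Stx1a). Of these, 3 are shown because they belong to the docking pair, Rab27a and Sytl4, and to Stx1a, the member with the lowest level. Each holds the 250 bases before a transcription start, written 5′ to 3′ on the gene's strand, with every CANNTG E-box in capitals. The E-box is the motif bound by basic helix-loop-helix factors such as the islet factor NeuroD1, and its letters read the same on both strands.
Rab27a, second start, chr9:73063898-73064147, plus strand: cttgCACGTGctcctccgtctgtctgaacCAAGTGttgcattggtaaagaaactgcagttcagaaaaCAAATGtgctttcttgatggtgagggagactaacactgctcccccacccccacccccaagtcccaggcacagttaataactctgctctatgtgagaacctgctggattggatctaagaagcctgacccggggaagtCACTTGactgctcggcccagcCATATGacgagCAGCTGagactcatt
Sytl4, chrX:133981813-133982062, minus strand: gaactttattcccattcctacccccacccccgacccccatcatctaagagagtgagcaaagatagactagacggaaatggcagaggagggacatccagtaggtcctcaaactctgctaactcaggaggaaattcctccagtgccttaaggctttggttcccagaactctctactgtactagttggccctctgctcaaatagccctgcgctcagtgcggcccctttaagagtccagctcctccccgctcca
Stx1a, chr5:135023232-135023481, plus strand: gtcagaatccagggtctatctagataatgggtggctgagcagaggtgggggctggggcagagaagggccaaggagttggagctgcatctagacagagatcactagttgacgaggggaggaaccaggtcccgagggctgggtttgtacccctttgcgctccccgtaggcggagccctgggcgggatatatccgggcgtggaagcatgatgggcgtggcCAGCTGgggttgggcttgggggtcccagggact
The Rab27a window held 6 E-boxes, a number reached in 0.274% of the 32851 promoter windows of the same length. It held the most E-boxes of the windows matched for the 4 genes. The window before the first Rab27a start held 1, and those of Rab3a held 0 and 3. Stx1a held 1 E-box, as 66.2% of all windows held at least 1, and Sytl4 held 0. CpG dinucleotides numbered 5 in the Rab27a window shown, 5 in that of Sytl4 and 9 in that of Stx1a, against a median of 6 over all windows. The window before the first Rab27a start held 14, and those of Rab3a held 16 and 15. These matches describe letters in the window and are not binding sites.

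Detected genes, those at TPM 1 or more, had a median of 4291.5 per young and 4078 per old cell. The cells also fall into runs of neighbouring cell numbers that differ in detected genes and in mitochondrial and long noncoding RNA, 4 runs at each age (young cells 1 to 39, 40 to 54, 55 to 86 and 87 to 138, and old cells 139 to 158, 159 to 190, 191 to 199 and 200 to 207). What sets the runs apart is not in the labels. By mitochondrial rRNA and tRNA the runs are of a low-rRNA kind (young 1 to 39 and 40 to 54, old 159 to 190 and 200 to 207, in all 54 young and 40 old cells) or a high-rRNA kind (84 young and 29 old cells). Runs and kinds were drawn up with the data in view, and the age differences of the 6 measured genes of the 7 are given over all cells and within each kind. The beta cell label was checked on 10 markers, whose summed level was at least 158735 TPM in every cell, with medians of 624464 TPM (young) and 596553 TPM (old). Most of that sum was Ins2, with means of 495521 TPM (young) and 475818 TPM (old). Ins1, Ins2, Iapp and G6pc2 were detected in 100% of cells, Slc30a8 and Ucn3 in 100% (young) and 98.6% (old), and Slc2a2 in 89.9% at both ages. Pdx1 was detected in 43.5% at both ages, and Nkx6-1 in 60.1% (young) and 52.2% (old). Mafa, a beta cell transcription factor, was close to 0 at both ages (0.0239 and 0.395 TPM). The summed markers of acinar, endothelial and stellate cells had a median of 0 TPM at both ages. Those of ductal cells had medians of 47.2 TPM (young) and 93.4 TPM (old), with 2 young and 5 old cells at 1000 TPM or more, and those of alpha cells had 910 and 742 TPM. Their part in the members' values was not tested. Markers of immune cells summed to 1000 TPM or more in 5 young cells and 1 old cell, and 7 old and 0 young cells held another islet hormone at 1000 TPM or more. The part of these cells in the values below is given where they move a result.

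Of the 7 genes, Snap25 had the highest mean TPM and Stx1a the lowest at both ages. From high to low the order of mean TPM was Snap25, Sytl4, Rab27a, Rab3a, Vamp2, Syt7 and Stx1a, in young and in old cells alike. The mean within-cell log2 difference of neighbours in this order was smaller than its SD between cells, except for Syt7 and Stx1a. Syt7 was above Stx1a in 131 of 138 young and 62 of 69 old cells. Snap25 was above Sytl4 in 76 of 138 young and 41 of 69 old cells. By medians the young order began with Snap25 (67.8 TPM) and Sytl4 (45.2 TPM), as it did in old cells (44.7 and 15.4 TPM).

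**Figure D1:**
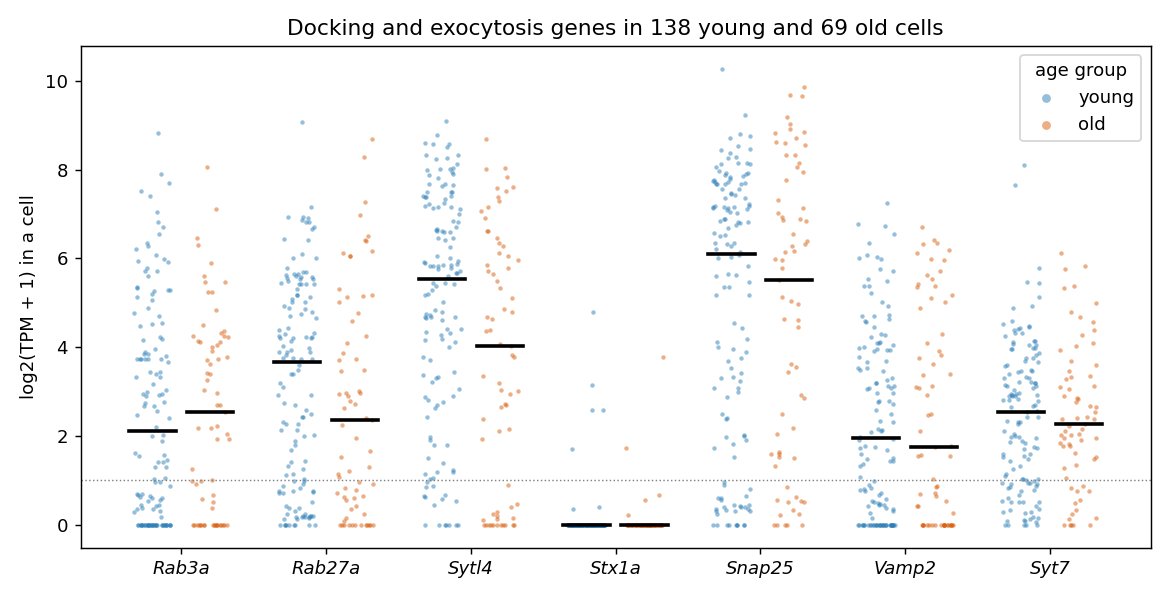
Level of each of the 7 genes in single cells, on a log2(TPM + 1) axis, with 138 young and 69 old cells as points and black bars at the medians; the dotted line marks TPM 1. Snap25 and Sytl4 have the highest medians, every gene has cells at 0, and nearly all points of Stx1a lie at 0.

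For each gene the age difference is log2((mean TPM in old + 1)/(mean TPM in young + 1)), and a gene is counted as higher or lower where its difference reached 1.5-fold. Only genes with a mean of at least 1 TPM at either age are counted, 12155 genes in all and 6 of the 7 here, since Stx1a stayed below that level. Over all cells 0 of the 6 were higher in old cells, against 16.8% of all genes counted, and 1 of the 6, Sytl4, was lower, against 26.4% of all genes. Among cells of low-rRNA runs, 1 of the 6 was higher (Vamp2), against 22.2% of all genes, and 3 were lower (Rab27a, Rab3a and Sytl4), against 31.8%. Rab3a was lower there in mean TPM, while its median and its share of cells with detection were higher in old cells. Among cells of high-rRNA runs, 2 of the 6 were higher (Rab27a and Snap25), against 20.0%, and 3 were lower (Vamp2, Sytl4 and Syt7), against 31.9%. The median difference of the 6 genes was -0.08 over all cells, -0.56 in low-rRNA runs and -0.31 in high-rRNA runs, and the median of all genes was -0.10, -0.09 and -0.14. Sytl4 was the member lower by 1.5-fold over all cells and in both kinds. Rab3a, Rab27a, Snap25 and Vamp2 differed in sign between the low-rRNA and high-rRNA kinds, with Rab3a at only 0.09 in high-rRNA runs. The share of all genes that meet either of these conditions is not given here, so neither sets the members apart from other genes.

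**Figure D2:**
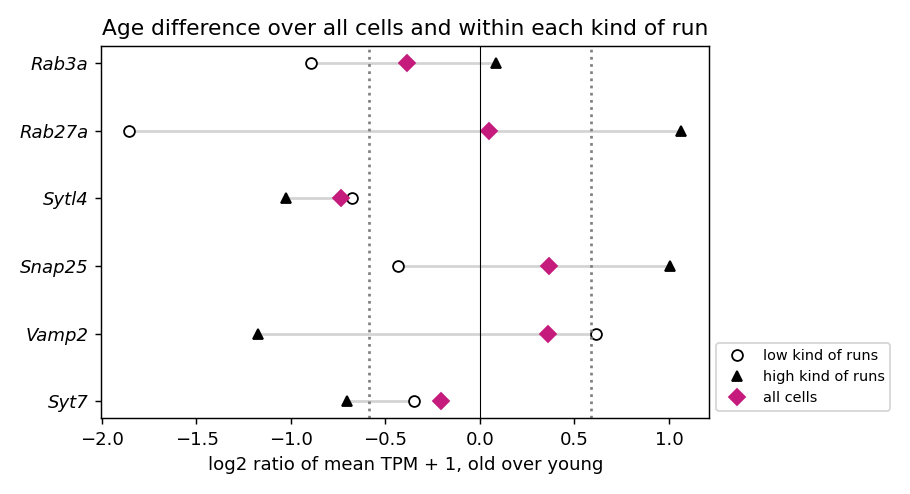
Age difference of each gene, log2 of old over young mean TPM, over all cells and within low-rRNA runs (low kind) and high-rRNA runs (high kind), with dotted lines at 1.5-fold. Sytl4 lies at -0.74, -0.68 and -1.03, and Rab27a lies at 0.05 over all cells, -1.86 in low-rRNA runs and 1.07 in high-rRNA runs.

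Rab3a, the synaptic and granule Rab that cycles on and off vesicles with secretion, ranged in young cells from 0 TPM through a median of 3.33 to 454 TPM, with a mean of 23.1 ± 54.3 TPM (SD between 138 cells). In old cells it ranged from 0 through a median of 4.86 to 267 TPM, with a mean of 17.4 ± 38.4 TPM (SD between 69 cells). The 2 ages overlapped over nearly their whole range. Rab3a was detected in 59.4% of young cells (95% Clopper-Pearson interval 50.7 to 67.7%) and 60.9% of old cells (48.4 to 72.4%). These intervals, like those below, cover counting error only. Its age difference was -0.39 over all cells, -0.89 in low-rRNA runs and 0.09 in high-rRNA runs. In low-rRNA runs the mean was 29.3 TPM (young) and 15.3 TPM (old), and 1 young cell held 28.7% of the young total. The median (0.733 and 5.49 TPM) and the share detected (46.3 and 62.5%) were higher in old cells there. The mean of log2(TPM + 1), in which the highest cells weigh less, was 2.53 at both ages over all cells. It was 2.10 (young) and 2.57 (old) in low-rRNA runs. By run, the mean of Rab3a lay between 2.23 and 39.7 TPM in young and between 5.93 and 26.9 TPM in old cells. The lowest of these was in young cells 40 to 54, the run with the fewest detected genes (median 2320 per cell).

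Rab27a, the Rab through which Sytl4 binds granules, ranged in young cells from 0 TPM through a median of 11.7 to 534 TPM, with a mean of 26.9 ± 53.6 TPM. In old cells it ranged from 0 through a median of 4.18 to 409 TPM, with a mean of 27.8 ± 66.2 TPM. Old cells therefore had the lower median and nearly the same mean. It was detected in 72.5% of young cells (64.2 to 79.7%) and 62.3% of old cells (49.8 to 73.7%). Where it was detected, its mean was 37.0 TPM (young) and 44.5 TPM (old). That mean was 49.0 TPM (young) and 13.4 TPM (old) in low-rRNA runs, and 31.9 and 71.5 TPM in high-rRNA runs. The 2 kinds of runs went opposite ways for this gene. In low-rRNA runs its mean was 27.3 TPM (young) and 6.82 TPM (old), and in high-rRNA runs it was 26.6 TPM (young) and 56.8 TPM (old). The share of cells with Rab27a was close between the ages within a kind, at 55.6% (young) and 50.0% (old) in low-rRNA runs and at 83.3% and 79.3% in high-rRNA runs. Run means were from 20.1 to 46.2 TPM in young cells and from 0.560 to 69.5 TPM in old cells. The highest young run mean, in cells 40 to 54, was for 77.0% the value of 1 cell (534 TPM). In old cells 200 to 207 Rab27a was detected in 1 of 8 cells, and in old cells 139 to 158 in 16 of 20. Of its 50-base transcript windows, 4.39% also occur in transcripts of other genes, 309 genes in all, and the pseudogene Gm27186 overlaps it by 149 bases on the same strand.

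Sytl4, the effector that docks granules, ranged in young cells from 0 TPM through a median of 45.2 to 545 TPM, with a mean of 89.4 ± 110 TPM. In old cells it ranged from 0 through a median of 15.4 to 410 TPM, with a mean of 53.2 ± 80.7 TPM. Old cells were lower in mean, median and highest value, while the 2 distributions overlapped over most of their range. It was detected in 88.4% of young cells (81.9 to 93.2%) and in 71.0% of old cells (58.8 to 81.3%). A level of 100 TPM or more was reached by 43 of 138 young cells (31.2%) and 12 of 69 old cells (17.4%). The lower level was therefore seen in the share of cells with the transcript and in the share at a high level. Sytl4 was detected in 83.3% of young and 75.0% of old cells of low-rRNA runs, and in 91.7% and 65.5% of high-rRNA runs. Detected genes per cell move with its level (Pearson r = 0.26 over 207 cells within runs). Among cells with 3500 to 5000 detected genes, a range chosen after seeing the data, it was detected in 90.1% of 81 young and 74.4% of 43 old cells, with means of 102 and 49.4 TPM. By run its means were 129, 30.5, 108 and 65.3 TPM in young cells in the order of the cell numbers, and 43.0, 65.0, 31.7 and 56.1 TPM in old cells. The 4 old runs thus all lay below 3 of the 4 young runs, by less than 1 TPM at the closest, and the young run below them was the one with the fewest detected genes. Without young cells 1 to 39 the age difference was -0.46, under 1.5-fold. It was -0.59 without the 7 old cells holding another islet hormone, and -0.74 without the 6 cells with immune markers, the same as over all cells.

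**Figure D3:**
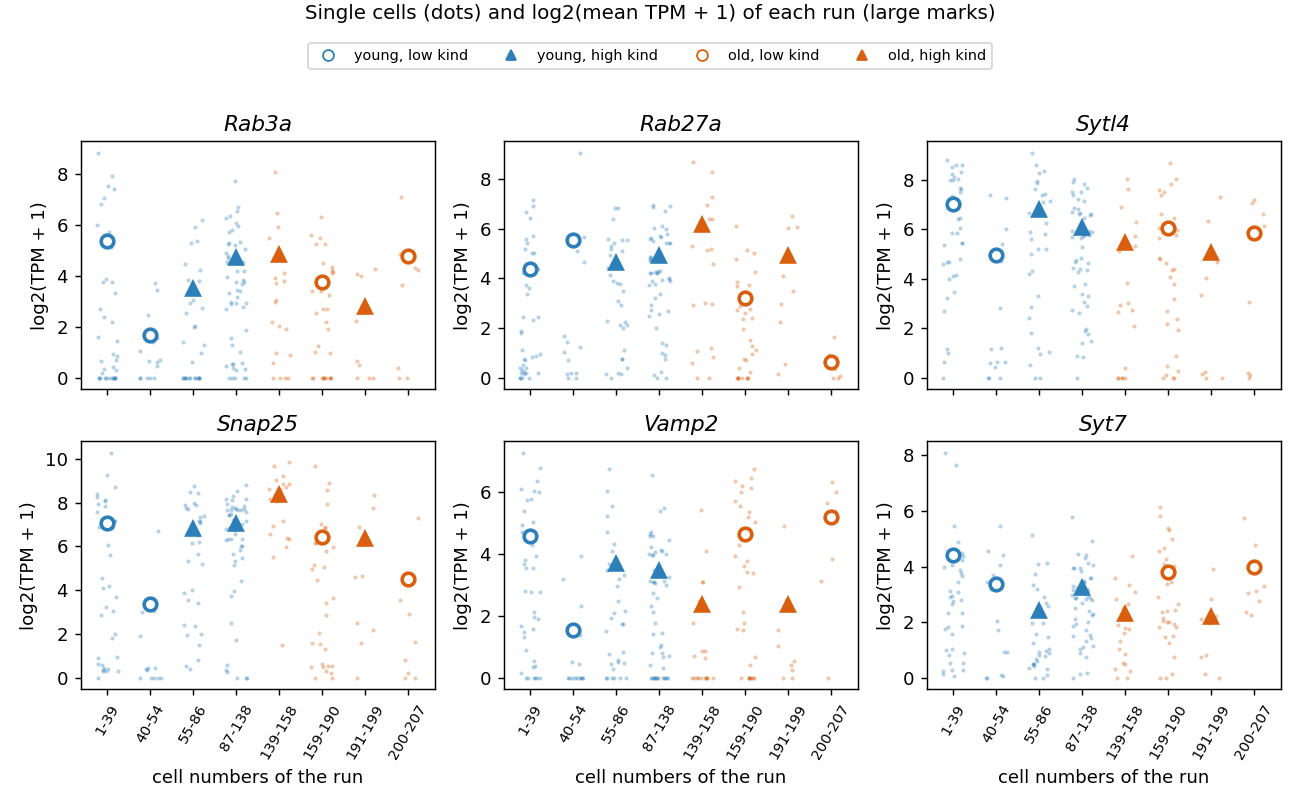
The 6 measured genes by run of neighbouring cells on a log2(TPM + 1) axis, with single cells as dots and log2 of the run's mean TPM + 1 as large marks, open circles for the low-rRNA runs and filled triangles for the high-rRNA runs, blue for young and orange for old. Snap25 is highest in old cells 139 to 158 (mean 322 TPM), where Vamp2 is at 4.13 TPM.

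Stx1a, the syntaxin of the plasma membrane to which Sytl4 and the Munc18 proteins bind, was at 0 TPM in 131 of 138 young cells and 64 of 69 old cells. It was detected in 5 young cells (3.62%, 1.19 to 8.25%) and 2 old cells (2.90%, 0.353 to 10.1%). Its mean was 0.345 ± 2.46 TPM (young) and 0.237 ± 1.56 TPM (old), and 1 cell of each age, at 26.9 and 12.8 TPM, carried 56.5% and 78.3% of those sums. All 7 cells with Stx1a at 1 TPM or more were of high-rRNA runs, 5 of 84 young and 2 of 29 old cells. None of the 54 young or 40 old cells of low-rRNA runs reached that level. By a limit of 3 cells of the total, this allows shares of up to 5.56% and 7.50%. Below that level, 1 young cell of these runs held 0.325 TPM and 1 old cell 0.173 TPM. None of the 50-base windows of Stx1a transcripts occurs in another gene.

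Snap25, its plasma membrane partner SNARE, ranged in young cells from 0 TPM through a median of 67.8 to 1234 TPM, with a mean of 113.5 ± 153 TPM. In old cells it ranged from 0 through a median of 44.7 to 927 TPM, with a mean of 146 ± 217 TPM. The old cells had the higher mean and the lower median. It was detected in 79.0% of young cells (71.2 to 85.5%) and 79.7% of old ones (68.3 to 88.4%). Its mean in low-rRNA runs was 99.7 TPM (young) and 73.5 TPM (old), and in high-rRNA runs 122 and 247 TPM. The higher mean of old cells lay in 1 run, cells 139 to 158, where Snap25 was detected in 20 of 20 cells with a mean of 322 ± 257 TPM. The other 3 old runs had means of 86.3, 78.9 and 22.2 TPM. Without cells 139 to 158 the age difference turned from 0.36 to -0.60. Young run means were 134.5, 9.23, 110 and 130 TPM, the low one again in cells 40 to 54.

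Vamp2, the granule SNARE, ranged in young cells from 0 TPM through a median of 2.87 to 152 TPM, with a mean of 13.0 ± 24.0 TPM. In old cells it ranged from 0 through a median of 2.39 to 104 TPM, with a mean of 17.0 ± 26.1 TPM. The ages overlapped throughout, and the gene was detected in 60.1% of young cells (51.5 to 68.4%) and 56.5% of old ones (44.0 to 68.4%). Within the old cells the 2 kinds of runs stood apart for Vamp2. It was detected in 29 of 40 old cells of low-rRNA runs, with a mean of 26.3 TPM, and in 10 of 29 of high-rRNA runs, with a mean of 4.13 TPM. Young cells had 16.8 TPM in low-rRNA runs and 10.6 TPM in high-rRNA runs. The age difference was 0.61 in low-rRNA runs and -1.17 in high-rRNA runs. Cell 200 stands next to a high-rRNA run and held 79.0 TPM, the highest Vamp2 value of its own run, and with it counted among the high-rRNA cells, a setting added after seeing the data, the differences were 0.54, now under 1.5-fold, and -0.60. By old run in the order of the cell numbers, Vamp2 had means of 4.13, 24.0, 4.14 and 35.7 TPM.

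Syt7, the calcium sensor, ranged in young cells from 0 TPM through a median of 4.87 to 273 TPM, with a mean of 10.9 ± 29.2 TPM. In old cells it ranged from 0 through a median of 3.83 to 69.1 TPM, with a mean of 9.32 ± 14.0 TPM. Medians and means were close at the 2 ages, and 1 young cell held 18.1% of the young total. The gene was detected in 73.9% of young cells (65.8 to 81.0%) and 78.3% of old ones (66.7 to 87.3%), low in most cells that had it. Its age difference was -0.21 over all cells, -0.35 in low-rRNA runs and -0.70 in high-rRNA runs. In low-rRNA runs the medians were 5.93 TPM (young) and 5.57 TPM (old), but detection was higher in old cells (72.2 and 90.0%). The mean of log2(TPM + 1) was also higher in old cells there (2.66 and 2.98). Run means were between 4.30 and 20.3 TPM in young and between 3.55 and 14.7 TPM in old cells, and among the old cells both low-rRNA runs were above both high-rRNA runs. Of its 50-base windows, 4.50% are shared with the antisense noncoding gene Gm26859, and since strand handling is not given, reads of the pair cannot be told apart.

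The number of the 7 genes found in a cell was counted at both ages. A young cell had 4.37 ± 1.24 detected (range 1 to 7) and an old cell 4.12 ± 0.993 (range 1 to 6). The number moved with the detected genes of the cell, with Pearson r = 0.53 over 138 young cells and 0.55 over 69 old cells. It was lowest in young cells 40 to 54, at 2.80, and highest in young cells 87 to 138, at 5.04. All 6 measured genes were found together in 23 young cells (16.7%, 10.9 to 24.0%) and 4 old cells (5.80%, 1.60 to 14.2%). The 4 old cells were all among the 40 of low-rRNA runs, while the young cells were 4 of 54 (7.41%) in low-rRNA and 19 of 84 (22.6%) in high-rRNA runs. In old cells the high-rRNA runs had 0 of 29, which allows up to 10.3% by the 3-cell limit. The docking pair Rab27a and Sytl4 was found together in 90 of 138 young cells (65.2%, 56.6 to 73.1%) and 30 of 69 old cells (43.5%, 31.6 to 56.0%). That share was 44.4% (young) and 32.5% (old) in low-rRNA runs, and 78.6% and 58.6% in high-rRNA runs. The SNARE pair Snap25 and Vamp2 was found together in 48.6% of young cells (40.0 to 57.2%) and 42.0% of old ones (30.2 to 54.5%). With Stx1a added, the full set of 3 SNARE genes was found in 2 young cells and in 0 of 69 old cells, which allows up to 4.35%.

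**Figure D4:**
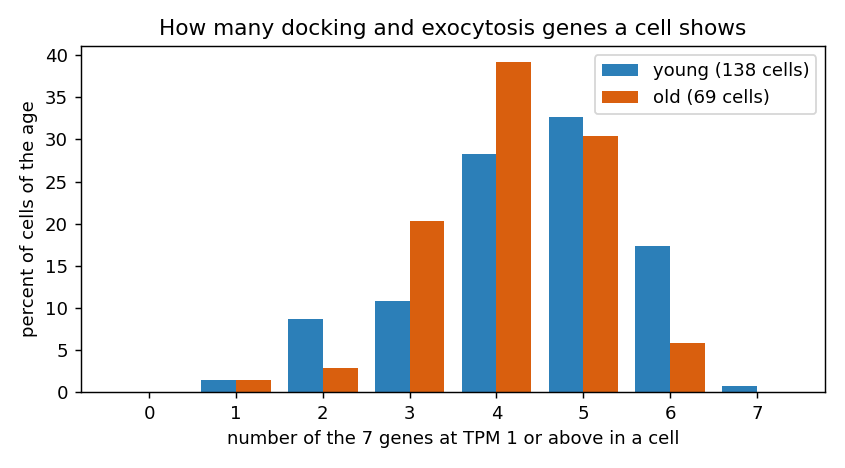
Percent of cells of each age by the number of the 7 genes at TPM 1 or above in a cell, as bars for 138 young and 69 old cells. The most frequent number was 5 in young cells (45 cells) and 4 in old cells (27 cells).

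Close relatives of the 7 genes were read in the same cells, on the TPM scale. Snap25 had the highest mean of the Snap genes read, and it was above Snap23, its widely expressed relative, in 104 of the 116 young and 52 of the 55 old cells with either. For syntaxin the reverse was seen, with means of 12.5 TPM (young) and 7.28 TPM (old) for Stx3, a syntaxin of granules and apical membranes, and 6.99 and 5.77 TPM for Stx4a, a plasma membrane syntaxin. Stx3 was above Stx1a in 58 of 62 young and 29 of 30 old cells with either. Among the vesicle SNAREs, Vamp8, known from endosomal and regulated secretory fusion, had means of 158 ± 268 TPM (young) and 91.8 ± 124 TPM (old), and was above Vamp2 in 92 of 122 young and 43 of 60 old cells. Vamp3, the cellubrevin that can stand in for Vamp2, had means of 25.0 and 27.1 TPM. Rab27b, the second Rab27, was close to 0 (0.00351 TPM in young cells and 0 in old), while Rab3d was at 30.2 and 18.1 TPM and Rab3b at 10.9 and 17.7 TPM. Of the synaptotagmins, Syt13 (111 and 141 TPM) and Syt4 (88.3 and 113 TPM), which lack some of the calcium-binding residues of the calcium-sensing forms, stood above Syt7. Syt13 was higher than Syt7 in 128 of 137 young and 65 of 69 old cells with either.

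The other genes of the pathway were taken as 5 lists by role, 89 genes of which 63 were measured and 7 were at 0 TPM in every cell. Of the 63, 8 were higher and 19 lower in old cells by 1.5-fold over all cells, beside 16.8% and 26.4% of all genes counted, with a median of -0.12 beside -0.10 for all genes. In the low-rRNA runs 11 were higher and 22 lower (median -0.21), beside 22.2% and 31.8% of all genes and their median of -0.09. In high-rRNA runs the numbers were 10 and 10 (median -0.02), beside 20.0%, 31.9% and -0.14. Of 14 measured Rab GTPases and regulators, 2 were higher and 5 lower (all genes 16.8% and 26.4%). Rab2a, a Rab of the early secretory pathway, had 129 TPM (young) and 74.2 TPM (old), a difference of -0.79 (-0.44 in low-rRNA and -1.18 in high-rRNA runs). Rab3d had a difference of -0.70 (-0.61 and -1.67), and the Rab escort protein Chm had -1.22 (-1.94 and -0.52), with 37.6% of its young total in 1 cell. Gdi2 (difference -0.25, by kind -0.51 and -0.02), which extracts Rabs from membranes, was abundant, at 92.7 TPM in young cells. Among 15 Rab effectors and tethers, 2 were higher and 4 lower (all genes 16.8% and 26.4%). The exocyst subunit Exoc2 had 5.28 TPM (young) and 10.5 TPM (old), a difference of 0.88, with 2.17 in low-rRNA and 0.10 in high-rRNA runs. A single cell held 32.0% of its old total, and it was detected in 25.4% of young and 23.2% of old cells. The more abundant Exoc5 (0.43), Exoc3 (0.01) and the Rab27 effector Exph5 (-0.52) were within 1.5-fold over all cells, but in low-rRNA runs Exoc5 was at 0.99 and Exph5 at -1.14. Of 9 other SNARE genes, 1 was higher and 2 were lower (all genes 16.8% and 26.4%). Vamp8 had a difference of -0.78, -1.05 in low-rRNA runs and -0.52 in high-rRNA runs, and Vamp3 had 0.11. Snap47 had 0.21 over all cells, from -0.65 in low-rRNA and 1.00 in high-rRNA runs.

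Munc18 proteins hold syntaxin, priming factors ready the granule, and Nsf with its adaptors takes spent SNARE complexes apart. Of the 16 measured genes of this list 0 were higher and 6 lower (all genes 16.8% and 26.4%), and its median was -0.35, with -0.58 in low-rRNA runs and -0.09 in high-rRNA runs. Stxbp2, a Munc18 protein, had 17.5 TPM (young) and 7.41 TPM (old), a difference of -1.14, with -2.31 in low-rRNA runs and -0.15 in high-rRNA runs. Nsf, the ATPase, had 26.8 and 13.0 TPM (-0.99, by kind -1.50 and -0.53), and was detected in 51.4% of young and 33.3% of old cells. The adaptor Napa (0.29) and the complexin Cplx2 (-0.52) were within 1.5-fold over all cells, but Napa was at 0.74 in high-rRNA runs and Cplx2 at -1.06 in low-rRNA runs. Of 9 other synaptotagmin and Doc2 genes, 3 were higher and 2 lower (all genes 16.8% and 26.4%), with a median of 0.35 over all cells, 0.44 in low-rRNA and -0.04 in high-rRNA runs. The 3 higher genes, named after their values were seen, were Syt3, Syt6 and Syt9. They reached a mean of 1 TPM in old cells only, and 1 cell held 58.5%, 99.1% and 94.2% of their old totals. Syt13 (0.35), Syt4 (0.35) and Syt5 (0.26) were within 1.5-fold over all cells, with Syt4 at 0.67 in low-rRNA runs, and Syt11, which does not bind calcium, had 15.0 TPM (young) and 9.48 TPM (old), a difference of -0.61 (-0.52 and -1.62 by kind).

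**Figure D5:**
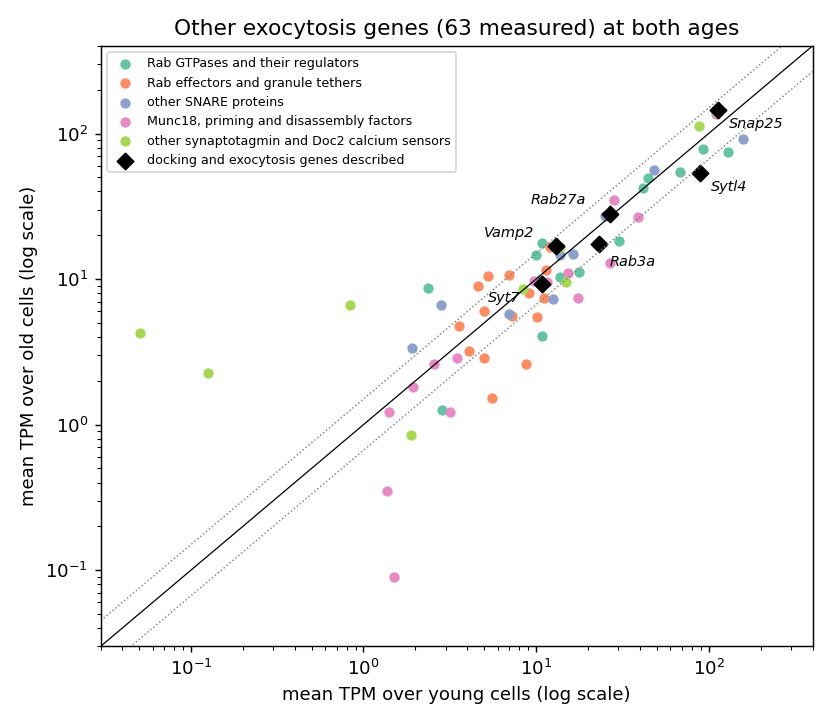
Mean TPM in young against old cells, both on log axes, for 63 other exocytosis genes coloured by list and for the 6 measured genes as black diamonds; the solid line is equality and the dotted lines are 1.5-fold in TPM without the added 1. The points scatter more widely about the line below 10 TPM than above it.

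Pairs of the 6 measured genes had weak correlations from cell to cell. After the mean of its run was taken from each cell, Pearson r of log2(TPM + 1) over 207 cells lay between -0.17 (Rab27a and Vamp2) and 0.18 (Rab27a and Sytl4) for their 15 pairs, with a median of 0.03. The median over 12895581 pairs of genes detected in at least 25% of cells was also 0.03. The genes with the most similar pattern, of 5079 such genes, had r of at most 0.32, which in sparse values is a weak likeness: Cops4, Cdk16 and Atp5g1 for Rab3a, Psmd13, Sst and Tor1aip1 for Rab27a, and Fam151a, Tuba1a and Prlr for Sytl4. Those for Snap25 were Fam151a, Bzw1 and C1galt1c1, those for Vamp2 Pdhb, Kif12 and Brwd1, and those for Syt7 Dio1, Dele1 and Tceal1. Fam151a, with r = 0.32 for both Sytl4 and Snap25, was the only gene named for more than 1 of the 6. Sst, the somatostatin gene of delta cells, had r = 0.25 with Rab27a, with 0.14 in young and 0.43 in old cells. Cells of a run are alike in detected genes and mitochondrial RNA, and these values are descriptions over cells of 2 samples.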

How the data were processed

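Single islet cells of 2 ages were captured on a C1 chip, with SMARTer cDNA and Nextera XT libraries, per the labels' protocols. The authors deposited 1 table of TPM values, and 0 of its columns were left unused. The submitters' processing notes name CASAVA 1.8.2, FastQC and the build GRCm38 (mm10). Which aligner, counter, annotation and strand setting were used is not given in the sources used here. TPM keeps no depth, so only detected genes per cell show it. Of 44448 rows, 39725 were matched to symbols in a RefSeq table (GRCm38.p6). Overlaps and shared windows came from GENCODE transcripts.

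Ages were compared as the log2 ratio of mean TPM with a pseudocount of 1, which understates low genes; no cell was left out, no doublet caller was run, and 0 pairs of cells were identical. Runs are least-squares change points (shortest run 8 cells, penalty multiplier 1). With multipliers 2 and 3, young cells 1 to 54, young cells 55 to 138 and old cells 159 to 207 were 1 run each. The last of these joined the high-rRNA run of cells 191 to 199 with the low-rRNA runs on either side, so the kinds of old cells depend on the penalty. Members and lists were chosen with earlier results of these data known. Text genes are the members, the 3 highest measured genes of each list, list genes at 10 TPM or above past 1.5-fold with 1 sign in both kinds, and the 3 genes most like each member; relatives were chosen by family. Some genes that this rule named are left out of the text. The ratio and run finder were tested on simulated data. Alternatives changed the pseudocount, scaling, filters, detection level and cells used. Python 3.11.15, numpy 2.4.6, pandas 2.3.3 and scipy 1.17.1 were used.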

Additional observations from a re-analysis of the deposited data

How the results depend on the processing

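Sytl4 was lower in old cells under each of the 22 alternatives run, between -1.19 and -0.46. The other members changed sign or size with the setting: Rab3a from -0.89 to 0.09, Rab27a from -1.86 to 1.07, Snap25 from -0.60 to 1.01, Vamp2 from -1.17 to 0.81, Syt7 from -0.82 to 0.33 and Stx1a from -0.40 to 0.27. Members 1.5-fold higher numbered 0 over all cells, 1 in low-rRNA runs (0 with cell 200 moved out, as Vamp2 went from 0.61 to 0.54), 1 without young cells 1 to 39 and without old cells 139 to 158, and 2 in high-rRNA runs (also with cell 200 moved there), without old cells 159 to 190 and in cells with 3500 to 5000 detected genes. Members lower numbered 1 over all cells, 0 without young cells 1 to 39, 2 without young cells 55 to 86, without old cells 159 to 190 and in cells with 3500 to 5000 detected genes, 3 in either kind (also with cell 200 moved) and 4 without old cells 139 to 158. The members' median was -0.62 without old cells 139 to 158, against -0.08, and the cause was not tested. The setting with cell 200 moved, the one by detected genes and the one without cells with immune markers were added after seeing the data.

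Of the wider genes, 19 were lower over all cells, 10 in high-rRNA runs, 9 there with cell 200 moved, and 10 at a mean of 10 TPM or above, where fewer genes (35) were counted and 2 were higher. Members per cell at a detection level of 10 TPM were 2.84 (young) and 2.49 (old). Of the 7 places in the order of levels, 4 (young) and 3 (old) held by medians, and 3 (young) by mean log2. The share of higher genes among all genes past 1.5-fold was 38.8%, 13.0% by difference of mean log2 (1.09% higher, 7.28% lower of 12155), 21.9% without the highest cell of each age, and 50.3% without young cells 1 to 39. Genes past the fold numbered from 132 to 2730 higher and from 673 to 4264 lower over the alternatives. Rescaling without Ins1 and Ins2 moved the median of all genes from -0.10 to -0.19. No paired analysis was possible because the labels give no numbers shared by the ages and no test was made.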

Other observations

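Cells of like detected genes were set side by side at the 2 ages. Under 3000 detected genes, Sytl4 was detected in 62.5% of 16 young and 42.9% of 14 old cells, and from 4000 to 5000 detected genes in 96.1% of 51 young and 80.6% of 31 old cells. Above 5000 detected genes the order was not the same, with 94.1% of 34 young and 100% of 6 old cells. Snap25 had the higher old mean only from 4000 to 5000 detected genes, at 117 TPM (young) and 251 TPM (old). Below 3000 it had 43.9 and 16.7 TPM, from 3000 to 4000 it had 105 and 68.2 TPM, and above 5000 it had 150 and 140 TPM. Syt7 was the member most often found in old cells under 3000 detected genes, in 85.7% of 14 cells, against 62.5% of 16 young cells.

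Values above 0 but below 1 TPM were common for some members: Rab27a had such values in 43 of 207 cells and Syt7 in 41, against 30 for Vamp2, 29 for Rab3a, 29 for Snap25 and 18 for Sytl4. Rab27a and Syt7 share a larger part of their transcript windows with other genes than the other members do, as given above, and the part of those reads in the low values was not tested.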
